A study of Mus musculus with 2 samples.

Results

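Genes of heart and skeletal muscle, 45 in all, were followed in a mouse embryonic stem cell line before and after embryoid body differentiation. They were chosen as a list of sarcomere proteins, calcium handling proteins, natriuretic peptides and muscle transcription factors, and all 45 were among the 18193 genes measured. By their main adult tissue, 23 were placed in a heart set, 15 in a skeletal set and 7 in a set common to both muscles. The line is PGK12.1, a female line at passage 14 to 18 that came from blastocysts of a 129 mother and a (129 X PGK)F1 father. The undifferentiated group (day 0) was grown with leukemia inhibitory factor on mouse embryonic fibroblast feeders, which were depleted on gelatin before collection. The day 15 group was feeder-depleted in the same way and then differentiated as embryoid bodies for 15 days. Each group is 1 Affymetrix array of total RNA from the same line, so no value below has a replicate error, no test between the groups was possible and every difference is described by its size. The study followed expression of the X chromosome, and the muscle genes here are read from the same pair of arrays.

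Striated muscle contracts when myosin thick filaments pull on actin thin filaments inside the sarcomere. Troponin and tropomyosin hold the thin filament off until calcium released through ryanodine receptors binds troponin C, and calcium pumps then return the ion to the sarcoplasmic reticulum. Heart and skeletal muscle use different genes for many of these parts, and embryoid bodies are known to form beating heart muscle cells and, later, skeletal muscle cells.

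Most thin filament genes were higher at day 15, while thick filament and calcium handling genes lay mostly within 2-fold. A gene counts as at least 2-fold higher or lower where its log2(signal + 16) differed by 1 or more between the arrays. At day 15, 12 of the 45 (26.7%) were higher by that rule, against 12.8% of all genes measured, and 3 (6.67%) were lower, against 7.56%. Among 11 thin filament genes 7 were higher, against 0 of 10 thick filament genes and 0 of 7 calcium handling genes. Groups of 10 and 7 genes are small beside a background of 12.8%, so these counts of 0 are not read as below it. Of the higher thin filament genes, Tnnt2, Tnni1, Tnnt3 and Acta1 rest on probe sets with the suffix a or x. Of the thick filament genes, Myl7 and Mybpc3 had signal ratios above 2 (2.14 and 2.25) and passed the rule with a pseudocount of 1 (log2 differences 1.09 and 1.15). The median log2 difference, day 15 minus undifferentiated, was 0.45 over the 45 genes and -0.02 over all genes. In bulk RNA, a larger number of muscle cells and more RNA per cell cannot be told apart.

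Most of these genes were dim. The highest of 15 bacterial control probe sets without target RNA read 35.6, and 11 of the 45 genes lay at or below that level on both arrays, 24.4% against 28.2% of all genes. A filter on the mean of both arrays kept 31 of the 45, of which 10 were higher, against 16.5% of all genes that passed, and 2 lower, against 8.41%. Since genes raised on 1 array pass it more easily, nothing is read from these counts. Of the 45, 11 lay above 35.6 on the day 15 array alone (24.4%, against 6.95% of all genes), 2 on the undifferentiated array alone (4.44% against 4.86%) and 21 on both (46.7% against 60.0%). A fold against a signal below 35.6 is a lower bound, computed against 35.6 itself, and genes below it on both arrays get no fold. Over 18 hybridization controls, the log2 ratio of day 15 over undifferentiated had a mean of 0.39 and an SD of 0.11. That offset remains in the deposited signals, and scaling on these controls took the median of the 45 genes from 0.45 to 0.19. Probe sets of the same gene differed with an SD of 0.53. Neither SD includes variation between cultures.

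**Figure D1:**
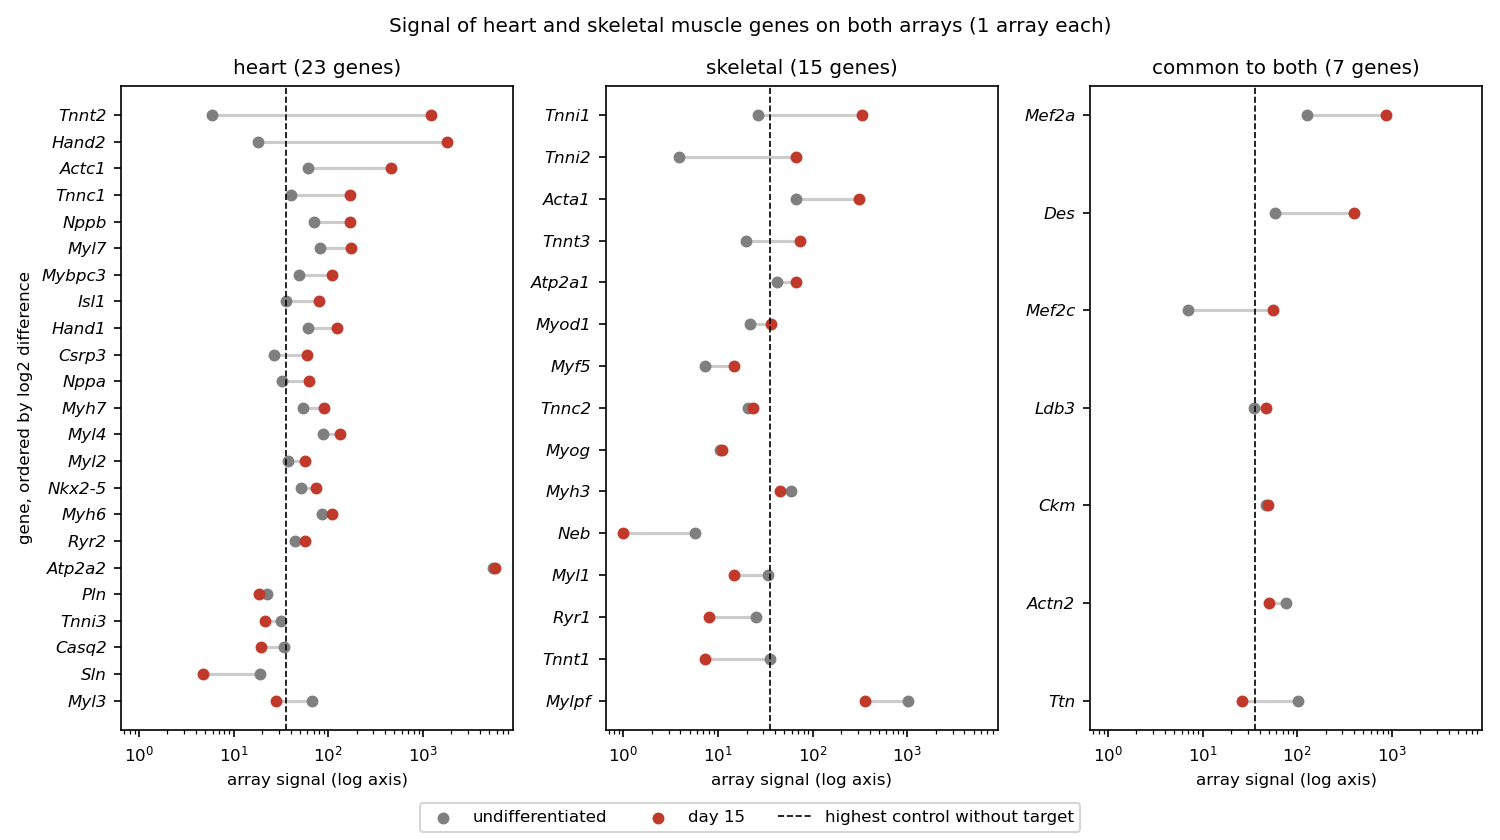
Array signal (log axis) of each muscle gene in undifferentiated cells (grey) and at day 15 (red), in panels for the 23 heart, 15 skeletal and 7 common genes. Points joined by a line are the same gene, and the dashed line marks 35.6, the highest control without target; most genes lie near that line, with Tnnt2 and Hand2 crossing it to 1229.3 and 1778.7 at day 15.

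Troponins are the calcium switch of the thin filament, in which troponin T binds tropomyosin, troponin I inhibits and troponin C binds calcium. Cardiac troponin T, Tnnt2, read 5.9 before differentiation and 1229.3 after it, at least 34.5-fold higher and the highest log2 difference of the 45 genes (5.83). A second probe set of Tnnt2 read 0.6 and 1367.9, while the third read 7.7 and 9.6. The first and second carry the suffixes x and a, so with suffixed probe sets left out the gene was at 0.11. Slow skeletal troponin I, Tnni1, which is also the form of the embryonic heart, read 26.2 and 331.6, at least 9.31-fold higher. Troponin C of heart and slow skeletal muscle, Tnnc1, read 40.7 and 171.2, a 4.21-fold difference. These 3 genes together encode a T, an I and a C subunit, and each was at least 2-fold higher at day 15. The only probe set of Tnni1 is suffixed too, so without suffixed probe sets Tnnc1 alone of the 3 was past 2-fold.

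The fast skeletal troponins lay close to the control level. Troponin I of fast muscle, Tnni2, read 3.9 and 67.1 (at least 1.88-fold higher), and troponin T of fast muscle, Tnnt3, read 19.6 and 73.5 (at least 2.06-fold higher). Both crossed the control level only at day 15, and each fell short of 2-fold with a pseudocount of 64 (log2 differences 0.95 and 0.72). The only probe set of Tnnt3 is suffixed. The fast troponin C gene Tnnc2 (20.8 and 23.6) and the adult cardiac troponin I gene Tnni3 (31.6 and 21.4) lay below the controls on both arrays. Slow skeletal troponin T, Tnnt1, read 35.0 and 7.2; its log2 difference of -1.14 counts as lower, but both signals lay below the controls and no fold can be given. Of the 8 troponin genes, 5 (62.5%) were thus at least 2-fold higher, against 12.8% of all genes. The other 3 (37.5%, against 28.2% of all genes) were at or below the control level throughout.

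Troponin I and T genes lie beside each other in the mouse genome, and this arrangement was set against the values after they had been seen. In the RefSeq table of GRCm38.p6, Tnni1 and Tnnt2 on chromosome 1 have 1 protein-coding gene, Lad1, between them, and both were at least 2-fold higher (log2 differences 3.04 and 5.83). Tnni2 and Tnnt3 on chromosome 7 also have 1 between them, Lsp1, and both were at least 2-fold higher (2.06 and 1.33). Tnnt1 and Tnni3 on chromosome 7 have 0 between them, and neither lay above the controls on either array. In each of the 3 couples both genes therefore lay on the same side of the control level at day 15. Over all genes measured 67.0% lay above that level at day 15, so a shared side is common and nothing is read from it. Other listed neighbours were Myh6 and Myh7, Nppb and Nppa, and Ryr2 and Actn2, all above it at day 15. Ryr2 and Actn2 had log2 differences of opposite sign (0.25 and -0.48).

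Sarcomeric actins were higher at day 15. Actc1, the cardiac alpha-actin that the embryonic heart and early skeletal muscle also use, read 61.0 and 462.6 (7.58-fold higher). Acta1, the skeletal alpha-actin, read 67.3 and 308.8 (4.59-fold higher). Both differences stayed past 2-fold under every alternative that gave a value. The only probe set of Acta1 is suffixed, so Acta1 had no value with suffixed probe sets left out. Each actin is measured by 1 probe set, and the muscle actins are close copies of each other: the smooth muscle actin Acta2 read 464.8 and 11495.4, and its part in the Actc1 and Acta1 signals was not tested. Nebulin, Neb, the giant protein along the skeletal thin filament, read 5.7 and 1.0.

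The regions before the starts of the actin genes are shown because both actins were higher and both hold a CArG box, the serum response factor motif, which 5 of the 38 listed genes with a promoter in the RefSeq table of GRCm38.p6 carry. The window is the 250 bases before the annotated start, 5′ to 3′, and capitals mark the motif, which begins 47 bases before the start in Actc1 (chr2:114052876-114053125, minus strand) and 73 bases before it in Acta1 (chr8:123894776-123895025, minus strand).
Actc1: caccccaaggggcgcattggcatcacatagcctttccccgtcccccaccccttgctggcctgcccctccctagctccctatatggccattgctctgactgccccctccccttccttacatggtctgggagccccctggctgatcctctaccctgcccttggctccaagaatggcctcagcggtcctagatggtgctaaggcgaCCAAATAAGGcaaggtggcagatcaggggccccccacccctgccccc
Acta1: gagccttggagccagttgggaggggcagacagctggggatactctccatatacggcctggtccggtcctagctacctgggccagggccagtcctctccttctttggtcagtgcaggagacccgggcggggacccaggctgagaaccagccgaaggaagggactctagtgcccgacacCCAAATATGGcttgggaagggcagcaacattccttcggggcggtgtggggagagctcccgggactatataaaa

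The other CArG boxes lie before Myl7, Myl3 and Ldb3, none of which reached 2-fold on the log2(signal + 16) scale, so the motif was present beside genes of both kinds. It begins 61 bases before the start of Myl7 (chr11:5898783-5899032, minus strand) and 85 before that of Myl3 (chr9:110763428-110763677, plus strand). Ldb3 has 2 listed starts with the motif, and in the window shown it begins 35 bases before the start (chr14:34588682-34588931, minus strand).
Myl7: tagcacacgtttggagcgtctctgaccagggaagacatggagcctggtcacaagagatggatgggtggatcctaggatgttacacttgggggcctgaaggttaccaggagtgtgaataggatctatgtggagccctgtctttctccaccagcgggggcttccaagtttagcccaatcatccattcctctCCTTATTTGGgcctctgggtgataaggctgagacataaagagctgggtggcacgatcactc
Myl3: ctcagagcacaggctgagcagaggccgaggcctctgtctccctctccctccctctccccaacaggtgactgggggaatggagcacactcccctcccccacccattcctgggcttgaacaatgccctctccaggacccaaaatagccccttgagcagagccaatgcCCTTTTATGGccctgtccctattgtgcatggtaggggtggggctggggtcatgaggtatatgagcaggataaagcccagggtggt
Ldb3: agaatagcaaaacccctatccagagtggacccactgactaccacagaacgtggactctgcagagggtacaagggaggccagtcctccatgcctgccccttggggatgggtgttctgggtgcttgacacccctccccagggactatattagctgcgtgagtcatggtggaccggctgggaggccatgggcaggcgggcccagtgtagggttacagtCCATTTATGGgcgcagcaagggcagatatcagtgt

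Over the RefSeq promoters, a CArG box was found in 1.47% of 32851 windows of the same length and in 1.62% of 27025 genes, against 13.2% of the 38 listed genes. The pattern searched for it matches the same places on both strands, as does that of the MEF2 site. The MEF2 site was found before 3 listed genes (Casq2, Mybpc3 and Ttn), 7.89% against 3.42% of all genes. The MCAT element, CATTCC on either strand, was found before 10 listed genes, 26.3% against 14.4%. In 0 of the 46 windows of the listed genes did matches of these motifs overlap, and a match in letters is not a binding site. Tnnt2, which had the highest difference, has 2 listed starts and holds no CArG box before them. An MCAT element begins 27 bases before 1 of them (chr1:135836084-135836333, plus strand), shown in capitals, and the window of the other start holds none.
Tnnt2: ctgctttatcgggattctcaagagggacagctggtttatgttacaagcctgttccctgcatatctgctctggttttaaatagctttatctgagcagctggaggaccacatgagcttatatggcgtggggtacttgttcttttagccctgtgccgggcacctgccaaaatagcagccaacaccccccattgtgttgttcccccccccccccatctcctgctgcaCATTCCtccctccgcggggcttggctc

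Myosin genes differed from the thin filament genes in this pair of arrays. Of 9 myosin chain genes 0 were called higher on the log2(signal + 16) scale, against 12.8% of all genes, although the signal ratio of Myl7 was 2.14. With 9 genes, a count of 0 is not read as below that share. In that set 1 (11.1%) was called lower, against 7.56%, and the median log2 difference was 0.31. The heavy chains of the heart, Myh6 (84.9 and 108.9) and Myh7 (54.5 and 90.1), differed by 1.28-fold and 1.65-fold. The embryonic skeletal heavy chain Myh3 read 59.1 and 44.9. By these probe sets the 3 heavy chains therefore stayed within 2-fold and above the controls on both arrays. A second probe set of Myh6, and 2 that name both Myh6 and Myh7, lay below the controls at day 15.

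Among light chains of the heart, Myl7 had the largest log2 difference. Myl7, the atrial regulatory light chain and an early marker of heart muscle, read 81.0 and 173.1, a signal ratio of 2.14 and a log2 difference of 0.96, just short of the 2-fold call. Myl4, the atrial essential light chain, read 87.4 and 133.3 (1.53-fold). The ventricular regulatory chain Myl2 read 37.3 and 56.8 (1.52-fold), and the ventricular and slow muscle chain Myl3 read 68.0 and 28.2 (log2 difference -0.93, with other probe sets at 0.72 and 0.39 that lay below the controls). Mybpc3, the cardiac myosin binding protein that tunes cross-bridge cycling, read 49.3 and 110.8, a signal ratio of 2.25 and a log2 difference of 0.96.

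Mylpf, the regulatory light chain of fast skeletal muscle, went the other way from the actins. Its signal was 1005.3 in undifferentiated cells and 360.2 at day 15, 2.79-fold lower, and the call held under all 9 alternatives. The fast essential light chain Myl1 read 33.4 and 14.8, below the controls on both arrays. Bright signal in stem cells was thus found for Mylpf without Myl1.

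**Figure D2:**
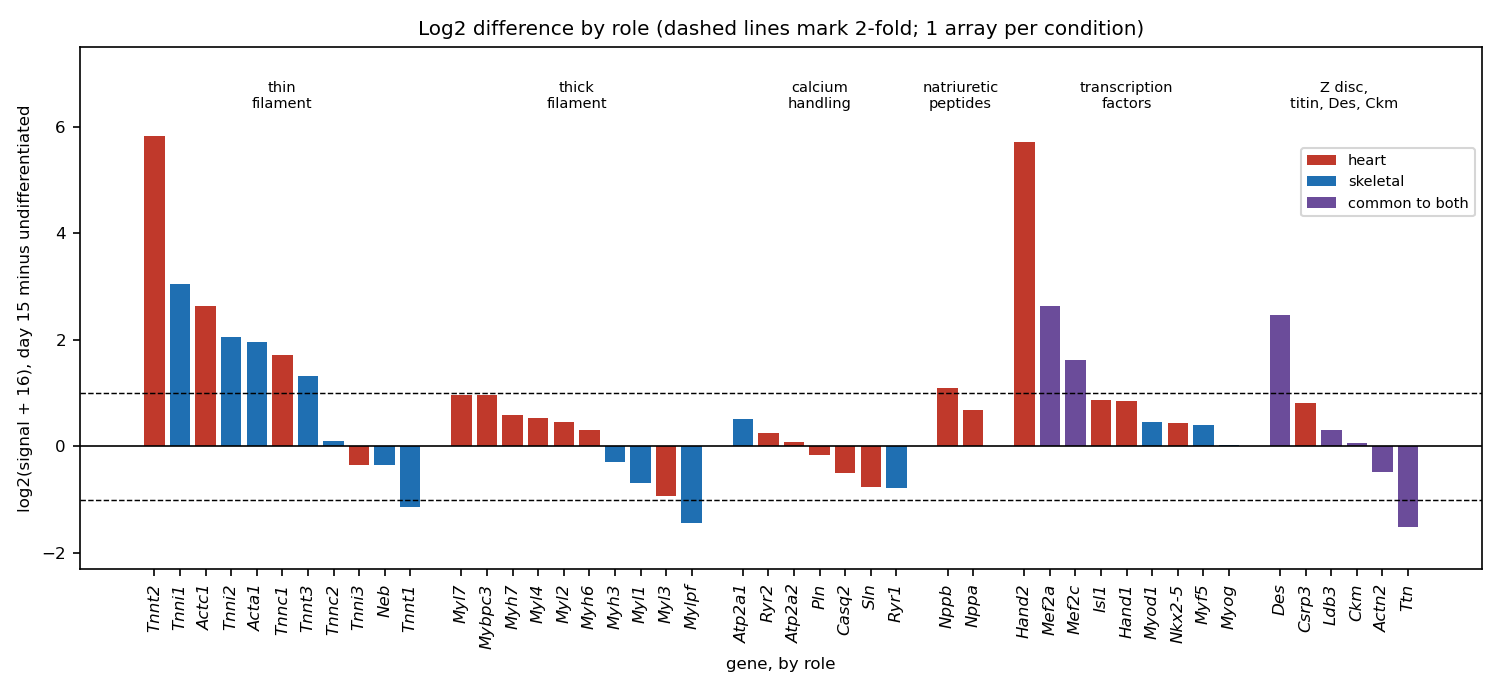
Log2(signal + 16) at day 15 minus undifferentiated for each of the 45 genes, as bars grouped by role and coloured by set, with dashed lines at 2-fold. Thin filament bars reach 5.83 (Tnnt2) with 7 of 11 past the upper line, while the 10 thick filament bars run from -1.44 (Mylpf) to 0.96 (Myl7).

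Genes of the Z disc and the sarcomere's frame went in different directions. Desmin, Des, the muscle intermediate filament, read 58.3 and 396.6 (6.80-fold higher), and its other probe set read 16.3 and 36.3. Titin, Ttn, the elastic protein that spans the sarcomere from Z disc to M line, read 102.8 and 25.8 (at least 2.89-fold lower). A second Ttn probe set read 111.7 and 20.5, and the other four lay at or below 27.7 on both arrays. With suffixed probe sets left out, Ttn was at -0.34.

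The remaining frame genes stayed within 2-fold. The muscle alpha-actinin Actn2 read 76.2 and 50.0, the Z disc adaptor Ldb3 read 35.3 and 47.3, and the muscle LIM protein gene Csrp3 read 26.9 and 59.5 (log2 difference 0.82). Muscle creatine kinase, Ckm, which buffers ATP in working muscle, read 47.2 and 49.6. Of these 6 genes, Des alone was at least 2-fold higher (16.7%, against 12.8% of all genes). Ttn alone was at least 2-fold lower (16.7%, against 7.56%). With 6 genes, neither count is read as different from the share over all genes.

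By the probe sets that stand for them, 0 of the 7 listed calcium handling genes reached 2-fold in either direction. Of all genes, 12.8% were higher and 7.56% lower, and with 7 genes a count of 0 is not read as below those shares. Of the 7 genes, 4 (57.1%) lay at or below the controls on both arrays, against 28.2% of all genes. Among further calcium genes read below, Cacna1c (2.7 and 39.5) and Slc8a1 (5.6 and 48.2) were called higher. Both crossed the control level only at day 15, while Trdn, Casq1, Jph2 and Cacna1s stayed within 2-fold. Atp2a2, the reticulum calcium pump of heart and slow muscle that other cell types also use, read 5473.2 and 5810.7, a log2 difference of 0.09, and its 5 probe sets above the controls ran from 0.04 to 0.62. Its fast muscle relative Atp2a1 read 42.1 and 66.5 (0.51). Phospholamban, Pln, the inhibitor of the cardiac pump, read 22.6 and 18.5, and sarcolipin, Sln, the pump inhibitor of atrium and skeletal muscle, read 19.0 and 4.7. The cardiac calsequestrin Casq2, which stores calcium in the reticulum, read 33.8 and 19.4. The pump was therefore bright before and after differentiation, while the pump regulators and the calcium store lay below the controls.

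The ryanodine receptors, the calcium release channels, showed no gain either. The cardiac receptor Ryr2 read 44.9 and 56.4, with a second probe set at 30.0 and 2.4, and the skeletal receptor Ryr1 read 25.2 and 8.0. The natriuretic peptide genes, which encode hormones released by heart muscle, were higher at day 15 by small amounts. Nppb, the ventricular form, read 70.6 and 168.0 (2.38-fold higher), and Nppa, the atrial form, read 32.6 and 61.9 (at least 1.74-fold). The Nppb call lies close to the threshold (1.09) and fell short of it with a pseudocount of 64, after quantile normalization and after scaling to the hybridization controls.

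All 9 muscle transcription factors had a log2 difference above 0, as had 8813 of the 18193 genes measured. With scaling on the hybridization controls Myog was at -0.12. Myf5 and Myog lay below the controls on both arrays, so nothing is read from their signs. Of the 9 factors, 3 (33.3%) were at least 2-fold higher, against 12.8% of all genes. Hand2, a basic helix-loop-helix factor of the right ventricle, limb and neural crest, read 18.0 and 1778.7 (at least 50.0-fold higher). Another probe set of Hand2 read 25.4 and 165.8, and the third read 1.6 and 25.8. Mef2a, a MADS box factor found in many tissues beside muscle, read 126.7 and 876.3 (6.92-fold higher), and all 4 of its probe sets above the controls were at least 2-fold higher. Mef2c, which acts in early heart and skeletal muscle, read 7.1 and 55.4 (at least 1.56-fold higher, log2 difference 1.63). Mef2c fell short of 2-fold with a pseudocount of 64 (0.75) and with the mean over probe sets (0.95). With scaling on the hybridization controls it was at 0.81, but there another probe set, which read 11.8 and 43.1 before scaling, stood for the gene. The 0.81 therefore does not show that scaling alone removed the call.

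The other heart factors lay just under the threshold or lower. Isl1, which marks second heart field progenitors and also motor neurons, read 35.6 and 78.9 (0.88), while its second probe set read 12.4 and 78.2 (1.73). Hand1, a factor of the left ventricle and trophoblast, read 60.5 and 122.2 (0.85), and Nkx2-5, the homeobox factor of the early heart, read 51.2 and 75.1 (0.44). With scaling on the hybridization controls these values were lower and all 3 stayed above 0 for the probe sets that stand for the genes.

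The factors that commit cells to skeletal muscle lay at or near the control level at day 15. Myf5 (7.3 and 14.8) and myogenin, Myog (10.4 and 10.9), lay below the controls on both arrays. Myod1 read 21.9 and 35.9, against the control level of 35.6, and its other probe set read 5.5 and 1.6. No skeletal commitment factor therefore had a day 15 signal clearly above the control probe sets.

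Heart and skeletal sets were then set side by side. In the heart set 5 of 23 genes (21.7%) passed 2-fold upward and 0 downward, with a median log2 difference of 0.59. In the skeletal set 4 of 15 (26.7%) passed it upward and 2 (13.3%) downward, with a median of 0.11. Of the 7 common genes 3 were higher and 1 was lower (median 0.30). Over all genes measured, 12.8% passed 2-fold upward and 7.56% downward. Tnnt1, counted as lower in the skeletal set, lay below the controls on both arrays. Above the controls at day 15 lay 18 of 23 heart genes (78.3%) and 8 of 15 skeletal genes (53.3%), against 67.0% of all genes.

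The heart median exceeded the skeletal median by 0.48, and this order turned when genes were filtered on their signal. Among genes above the filter on the mean of both arrays, 19 heart and 6 skeletal genes were left and the difference of medians was -0.10, and it was the same with 8 skeletal genes above the control level on at least 1 array. Both filters let genes raised on 1 array pass more easily, so they do not show which genes set the order. With 1 array a condition, the difference between the sets cannot be tested. With scaling on the hybridization controls, which moved the median of all genes by -0.25, the heart median was 0.27 and the skeletal median -0.11, while the higher genes of the 45 numbered 10 (background 8.5%) and the lower genes 4 (background 15.2%). That scaling took the higher share of all calls from 62.9% to 35.9% over all genes, and from 80.0% to 71.4% over the 45.

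**Figure D3:**
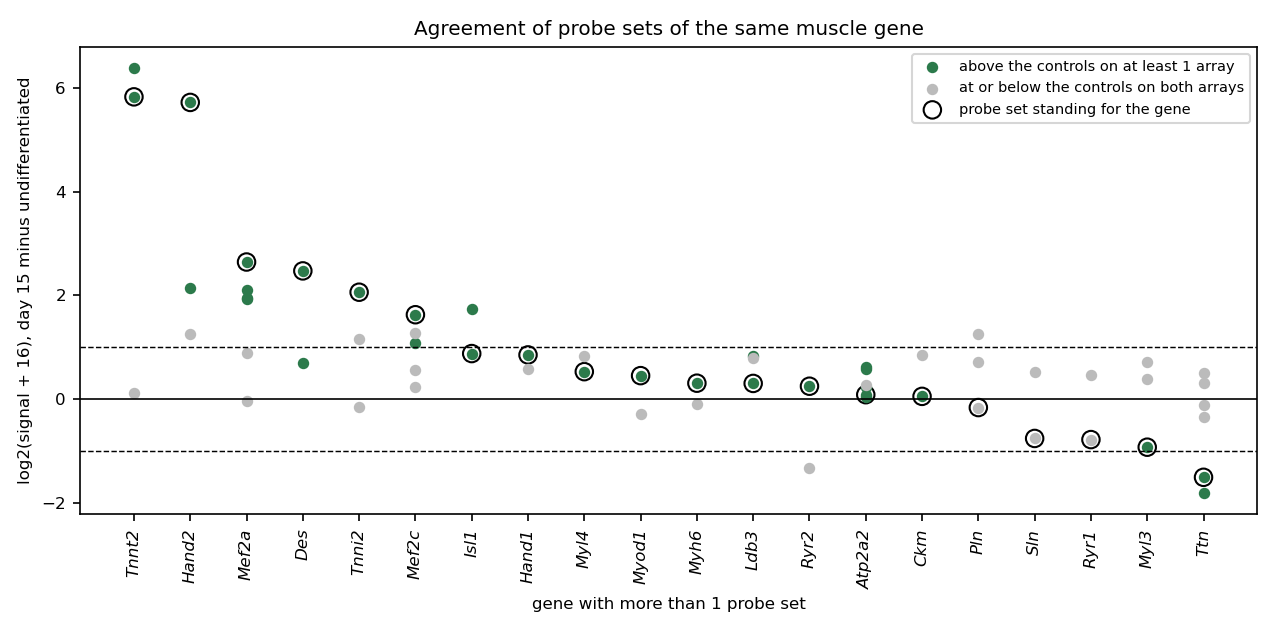
Log2 difference of every probe set of the 20 muscle genes that have more than 1, with green points above the control level on at least 1 array, grey points at or below it, and a ring around the probe set that stands for the gene. In the 9 genes with more than 1 green point, all green points of a gene lie on the same side of 0, while grey points scatter on both sides. A green point above the control level on only 1 array has its sign set by that rule, so the agreement is partly built in.

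Other striated muscle genes were read from a second list. From 43 further structure and calcium genes that were measured, 11 (25.6%) passed 2-fold upward, against 12.8% of all genes. Downward passed 1 (2.33%), against 7.56%, and the median was 0.11. The highest were Ankrd1, a stretch-responsive ankyrin repeat protein of muscle (16.1 and 2455.8), and the small heat shock protein gene Cryab (79.2 and 2088.2), which protects desmin. Next came the LIM protein gene Fhl2 (55.6 and 661.1), the tropomyosins Tpm2 (449.2 and 3236.9) and Tpm1 (786.8 and 5098.3), and Popdc2 (29.7 and 247.2), a membrane protein of heart and skeletal muscle. Tropomyosins are also made by smooth muscle and fibroblasts. Other genes of the adult fibre were read at various levels: the muscle enolase gene Eno3 was at least 2-fold higher (353.8 and 1124.0), the respiratory chain subunit Cox7a1 read 143.5 and 144.1, and myoglobin, Mb, lay below the controls on both arrays (21.2 and 6.4). Of the 43 genes, 17 (39.5%) lay at or below the controls on both arrays, against 28.2% of all genes.

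Of 24 other heart and muscle transcription factors, 7 (29.2%) passed 2-fold upward, against 12.8% of all genes. Downward passed 1 (4.17%), against 7.56%, and the median was 0.33. The T-box factor Tbx20 read 22.6 and 839.8, though only 1 of its 3 probe sets above the controls passed 2-fold. Gata6 (24.1 and 823.9) and Gata4 (44.8 and 234.1), zinc finger factors of heart and endoderm, were at least 23.1-fold and 5.23-fold higher. Tcf21, an epicardial and fibroblast factor, read 4.3 and 96.0, and Eya1 read 49.9 and 241.5. Smyd1, a muscle methyltransferase, was lower (140.9 and 32.6), with 3 of its 4 probe sets above the controls lower and 1 higher. The serum response factor gene Srf read 278.7 and 346.4, while the heart factor Tbx5 (17.9 and 12.0) and the SRF partner Myocd (12.4 and 8.2) lay below the controls on both arrays.

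Markers of smooth muscle and fibroblasts had higher median differences than the heart, skeletal and common sets (0.59, 0.11 and 0.30). The log2 differences of the 10 pluripotency markers were all below 0 (median -1.08). Over all genes measured, 12.8% passed 2-fold upward and 7.56% downward. Among 8 markers of smooth muscle, 6 passed 2-fold upward and 0 downward (median 3.30), and their summed signal went from 1382.1 to 29179.3; the defining smooth muscle heavy chain Myh11 read 19.1 and 26.3, below the controls. Among 14 markers of fibroblasts and matrix, 13 passed 2-fold upward (median 5.12), and their summed signal went from 5532.8 to 61505.4, with Thy1 alone within 2-fold (143.5 and 144.5). The part of smooth muscle, fibroblasts or feeder cells in the signals of Actc1, Acta1, Tnnt2, Des, Hand2 and Mef2a was not tested. All 10 pluripotency markers stayed above the controls at day 15, 6 of them at least 2-fold lower and 4 within 2-fold.

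**Figure D4:**
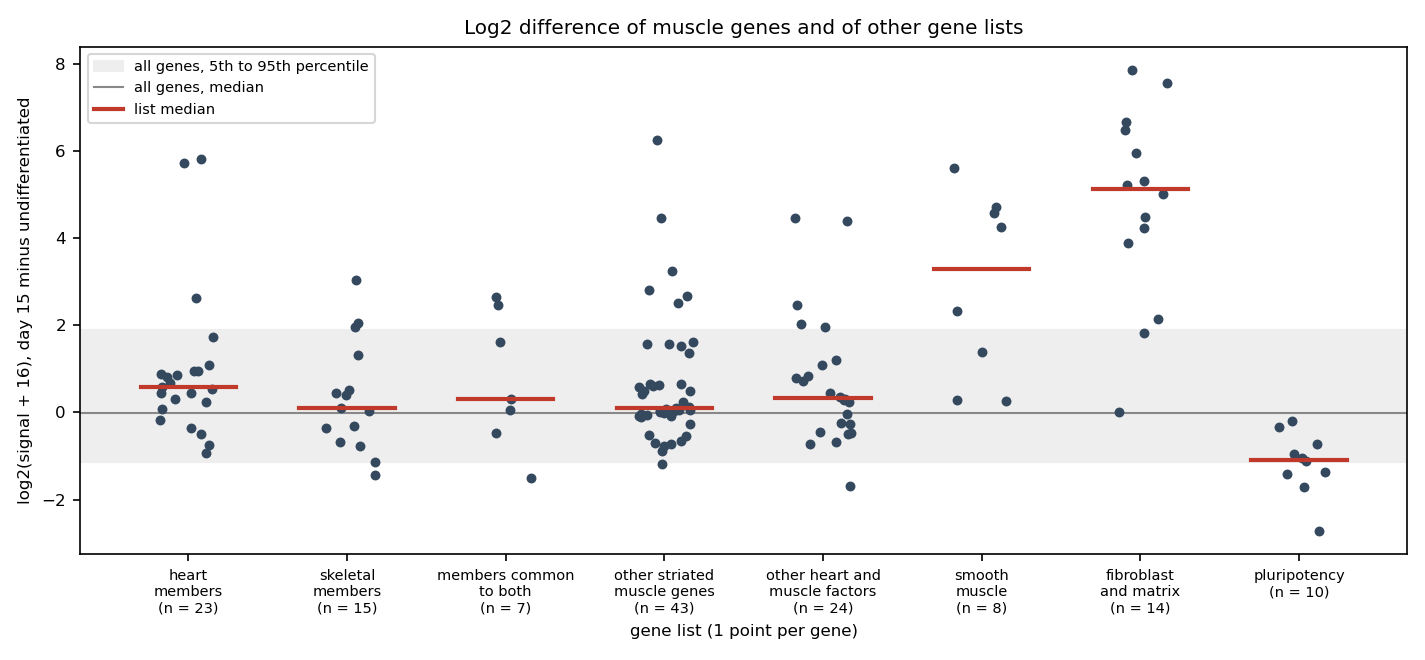
Log2 difference of each gene (points) in the 3 muscle sets and in 5 other gene lists, with list medians as red lines, the median of all genes as a grey line and the range from the 5th to the 95th percentile of all genes shaded. Heart, skeletal and common medians (0.59, 0.11 and 0.30) lie inside the shaded band, while the smooth muscle and fibroblast medians (3.30 and 5.12) lie above it.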

How the data were processed

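Total RNA from 1 undifferentiated and 1 day 15 sample was hybridised to Affymetrix mouse arrays; per the labels' protocols, RNA was purified on columns with DNase and biotinylated cRNA was made. The deposited values are linear signal intensity for 45101 probe sets, and which software made them is not given in the sources used here. With 2% cut from either end, both arrays averaged 250.0, which shows a common scaling of the deposited intensities.

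Of these probe sets 64 were controls, 34945 named 1 gene in the platform annotation and 932 several (not used). Symbols were updated through RefSeq (GRCm38.p6) by gene identifier for 34741 and by symbol for 143. Where a gene had several, its brightest probe set by mean log2(signal + 16) was taken. No expression filter was applied, since it keeps genes raised on 1 array; 31 of the 45 genes passed a filter at the median (signal 36.5), used as an alternative. Differences on the log2(signal + 16) scale understate dim genes, and folds are ratios of deposited signals. All 45 genes are named, and up to 6 genes with the largest absolute log2 difference of both other striated muscle lists; marker lists are given as counts. Acta2, Mb, Eno3, Cox7a1, Srf, Tbx5, Myocd, Myh11, Thy1, Cacna1c, Slc8a1, Trdn, Casq1, Jph2 and Cacna1s were named after their values were seen. The control level of 35.6 was also chosen then. The members, sets and lists were chosen with earlier results of these data known. Of the 45 genes 38 had a RefSeq promoter. The code was tested on simulated data. Python 3.11.15, pandas 2.3.3 and numpy 2.4.6 were used. Alternatives were pseudocounts of 1 and 64, 2 filters, the mean over probe sets, leaving out suffixed probe sets (a, s, x), and 3 scalings. The brightest probe set was chosen anew under each alternative, except where the mean over probe sets was used.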

Additional observations from a re-analysis of the deposited data

How the results depend on the processing

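The 12 muscle genes at least 2-fold higher numbered 8 to 17 over the 9 alternatives, and the median over the 45 genes ran from 0.19 (scaling on the hybridization controls) to 0.75 (genes above the control level). Of the 15 genes past 2-fold, 8 kept their call in every alternative that gave a value. Counts of lower genes moved with the pseudocount: with a pseudocount of 1 the lower genes numbered 8 in all, 2 in the heart set and 5 in the skeletal set, with 10 heart genes higher. With a pseudocount of 64 there was 1 lower gene in all and 1 in the skeletal set, with 2 skeletal genes higher. Without suffixed probe sets, 39 genes were left, with 1 lower in all, 1 lower and 1 higher in the skeletal set. Either filter left 1 lower skeletal gene and turned the heart minus skeletal difference of medians to -0.10. Quantile normalization and scaling on the hybridization controls each gave 1 lower heart gene, and the latter turned the skeletal median to -0.11. No paired analysis was possible because each group is 1 array. Signal close to that of controls without target limits what can be said of most of these genes, and the number of arrays limits all of it.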

Other observations

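The cardiac myosin heavy chains share 2 further probe sets, which name both Myh6 and Myh7 and entered no gene value. The first read 40.2 in undifferentiated cells and 26.4 at day 15, and the second read 2.9 and 7.2. Neither was above the control level of 35.6 at day 15. The second probe set of Myh6 alone read 2.7 and 1.5, against 84.9 and 108.9 for the probe set that stands for the gene. Phospholamban has probe sets in both directions below that level: beside 22.6 and 18.5, they read 5.8 and 19.9, and 3.5 and 30.3.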
